A study of Mus musculus with 5 samples.

Results

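Cycling T cells of mouse skin were taken from 5 single-cell RNA-seq libraries of dermal leukocytes, sorted as live CD45+ cells from C57BL/6 mice. The members were chosen by their measured UMIs of 7 genes. A barcode was counted as a T cell when it held at least 1 UMI of the CD3 chain genes Cd3d, Cd3e and Cd3g summed and fewer than 10 UMIs of the keratins Krt5 and Krt14 summed. It was counted as cycling when it also held at least 1 UMI of Mki67 and Top2a summed. A UMI is a molecular tag that marks 1 captured RNA molecule. Of 6223 deposited barcodes, 6162 had at least 200 genes and at most 10% mitochondrial UMIs, 2398 of these were T cells, and 238 were cycling. The cycling cells made up 9.92% of the T cells and 3.86% of the barcodes kept. The other 2160 T cells, without a UMI of Mki67 or Top2a, were the comparison.

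Mouse skin holds several T cell populations. Dendritic epidermal T cells are γδ T cells that settle in the epidermis in early life and renew themselves there, and the dermis holds interleukin 17-producing γδ T cells, regulatory T cells, CD8 T cells and CD4 T cells. A dividing cell licenses its replication origins, copies its DNA in S phase, condenses its chromosomes in G2 and separates them on the spindle in mitosis. Mki67 encodes the proliferation antigen Ki-67, and Top2a encodes topoisomerase II alpha, which untangles DNA before chromosomes separate.

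The 5 groups had 1 library each. P50_Depil5D came from depilated skin taken 5 days after depilation, a treatment that starts a new phase of hair growth. P45, P50, P63 and P80 came from undepilated skin at postnatal days 45, 50, 63 and 80, in telogen, the resting phase of the hair cycle. The labels give no sex and no number of animals per library, and they do not say whether P50 in P50_Depil5D is the age at depilation or at collection. With 1 library a group, no difference between groups was tested. Intervals printed for single libraries, or for cells pooled over libraries, cover counting error only and not the spread between libraries. A difference between cycling and other T cells was tested over the 5 libraries, each holding both kinds of cell.

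Library totals ran from 1032621 UMIs in P80 to 7491878 UMIs in P45. The median share of ribosomal pseudogenes, over 16 pseudogenes and their 13 parent genes, was 3.51% in P50_Depil5D and 3.70% in P50, against 7.08%, 18.5% and 25% in P45, P63 and P80, so counts were not split between near-identical genes alike in all libraries. Cycling T cells were deeper than other T cells in every library. Their median UMI count was 2551.5 in P50_Depil5D, 3178 in P45, 2638.5 in P50, 2849 in P63 and 1586.5 in P80, against 1266, 2475, 1153.5, 1416 and 1001 in the other T cells of the same libraries. Some barcodes occurred in more than 1 library. Among the cycling T cells, 2 of P50_Depil5D, none of P45, 3 of P50, 10 of P63 and 6 of P80 carried a barcode that was also kept in another of the libraries P50, P63, P80 and P50_Depil5D.

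The name was checked against markers of other cells. A cell was said to hold other-lineage UMIs when it had at least 3 UMIs from a list of 12 macrophage and monocyte genes, at least 10 from 12 dendritic cell genes, which include MHC class II, or at least 10 from 12 keratinocyte genes. Of the 238 cycling T cells, 74 did, against 589 of the 2160 other T cells. They were 5 of 60 cycling T cells in P50_Depil5D, 46 of 66 in P45, 13 of 82 in P50, 6 of 20 in P63 and 4 of 10 in P80, against 50 of 656, 428 of 660, 45 of 582, 25 of 153 and 41 of 109 other T cells of the same libraries.

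The P45 cells went against their name. Of the 66 cycling T cells of P45, 41 held at least 10 dendritic UMIs and 36 held at least 3 macrophage UMIs, and their median was 32 dendritic UMIs and 3 Cd3 UMIs. The 660 other T cells of P45 had medians of 36.5 dendritic UMIs and 4 Cd3 UMIs. The median Cd3 count of cycling T cells was 21.5 in P50_Depil5D and 19.5 in P50, but 3 in P63 and 4 in P80. Cells that should lack Cd3 also held it. At least 1 Cd3 UMI was found in 97 of 520 cells with at least 3 C1q UMIs (18.7%), in 264 of 756 cells at or over the keratin limit (34.9%) and in 22 of 75 cells with at least 3 UMIs of the mature dendritic genes Ccr7, Ccl22 and Fscn1 (29.3%). A Cd3 count of 1 or 2 was found in 65 of the 238 cycling T cells, and 144 held at least 5. The P45 cells are therefore best described as the Mki67 or Top2a-positive, Cd3-positive cells of P45. In what follows "cycling T cells" is only a label for all cells that met the rule, those of P45 included. It does not say that each of them is a T cell, and the low Cd3 medians of P63 and P80 limit the name there too.

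**Figure D1:**
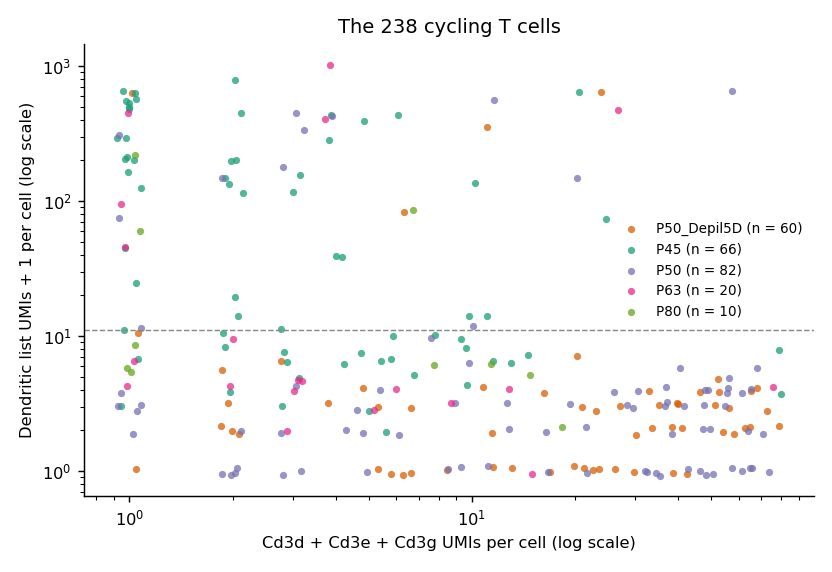
UMIs of the Cd3 genes (x axis, log scale) against UMIs of 12 dendritic genes (y axis, log scale) plus 1 in each of the 238 cycling T cells, coloured by library. The dashed line marks 10 dendritic UMIs, and points are spread a little to show overlaps. Most P45 cells lie low in Cd3 and high in dendritic UMIs (medians 3 and 32), while cells of P50_Depil5D and P50 lie high in Cd3 (medians 21.5 and 19.5).

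Most members sat close to the threshold. Of the 238 cycling T cells, 122 held exactly 1 UMI of Mki67 and Top2a, 40 held 2, and 76 held 3 or more. Just outside the threshold were the 2160 T cells with none. Top2a alone was seen in 129 members, Mki67 alone in 42, and both in 67.

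The share of T cells that were cycling was 8.38% in P50_Depil5D (60 of 716 T cells, 95% Clopper-Pearson interval 6.46 to 10.7). It was 9.09% in P45 (66 of 726, 7.10 to 11.4), 12.3% in P50 (82 of 664, 9.94 to 15.1), 11.6% in P63 (20 of 173, 7.21 to 17.3) and 8.40% in P80 (10 of 119, 4.10 to 14.9). P50 was highest and P50_Depil5D lowest, and the intervals of neighbours in that order overlap. A UMI of Mki67 or Top2a was also found in 4.96% of 423 Cd3-negative cells with C1q (median 2140 UMIs) and in 16.1% of 492 Cd3-negative cells over the keratin limit (median 3248.5 UMIs). It was found in 6.18% of all 3008 Cd3-negative cells under the keratin limit (median 2067 UMIs).

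P50_Depil5D had 0.679 times the cycling share of P50 (95% interval 0.478 to 0.958, counting error only). When each cell was thinned to 800 UMIs and the rule applied again, the share was 5.77% in P50_Depil5D (39 of 676) against 6.19% in P50 (38 of 614), a ratio of 0.93 (0.58 to 1.50). Thinning took the shares to 2.64% in P45 (12 of 454), 4.38% in P63 (6 of 137) and 5.97% in P80 (4 of 67). The ratio was 1.13 (0.62 to 2.08) at 500 UMIs and 0.71 (0.44 to 1.13) at 1500 UMIs, so its direction depended on the depth chosen, and all 3 intervals at equal depth include 1. At 1500 UMIs only deeper cells remained, 231 of 716 T cells in P50_Depil5D and 196 of 664 in P50.

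Across the telogen ages the shares gave no single direction. P80 had 0.924 times the share of P45 (0.424 to 1.81), and 2.26 times at 800 UMIs (0.53 to 7.45). Of the other T cells of P80, 79 of 109 reached 800 UMIs, while all 660 of P45 did. P50 had 1.36 times the share of P45 (0.970 to 1.91), and 2.34 times at 800 UMIs (1.20 to 4.92). Without cells holding other-lineage UMIs, the share at 800 UMIs was 6.24% in P50 and 2.44% in P45. Without shared barcodes the share fell to 6.80% in P63 (3.31 to 12.2) and to 4.35% in P80 (1.20 to 10.8).

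**Figure D2:**
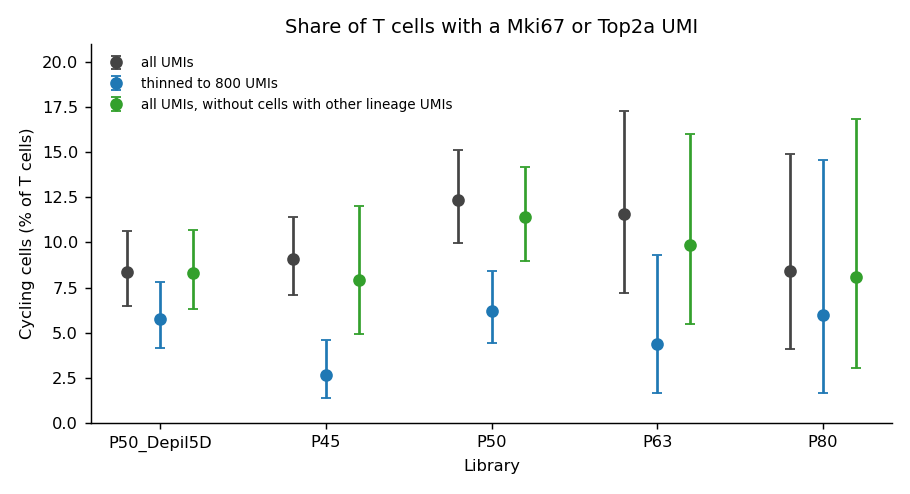
Percentage of T cells with at least 1 UMI of Mki67 or Top2a (y axis) in each library (x axis), before thinning, at 800 UMIs per cell and without cells holding other-lineage UMIs. Points are shares and bars are 95% Clopper-Pearson intervals. P50_Depil5D lies below P50 before thinning (8.38% and 12.3%) and close to it at 800 UMIs (5.77% and 6.19%).

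Cycling T cells carried other cell cycle transcripts as well as those that chose them. Gene lists in common use for phase scoring were summed per cell, 42 genes of S phase and 50 genes of G2 and mitosis, leaving out Mki67 and Top2a. The median cycling T cell held 27 UMIs of both lists together, against 2 in other T cells. At 800 UMIs per cell, 156 of 237 cycling T cells held at least 5 (65.8%, 59.4 to 71.8), against 97 of 2130 other T cells (4.55%, 3.71 to 5.53). These genes vary together with Mki67 and Top2a in dividing cells, so the counts describe what the rule selected and are no independent support for it.

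G2 and mitosis transcripts outnumbered S phase transcripts in 188 of the 238 cycling T cells (79.0%, 73.3 to 84.0). S phase transcripts were more numerous in 33 (13.9%, 9.74 to 18.9), 10 cells had equal numbers, and 7 had none of either. G2 and mitosis led in 52 of 60 cells of P50_Depil5D, 47 of 66 of P45, 68 of 82 of P50, 14 of 20 of P63 and 7 of 10 of P80. It led in every library, and the 10 cells of P80 held none in which S phase led. Top2a and Mki67 are themselves most abundant late in the cycle, so this split follows in part from the rule. At 800 UMIs per cell, G2 and mitosis led in 70.9% of cycling T cells and in 38.2% of other T cells, of which 30.5% held no UMI of either list.

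**Figure D3:**
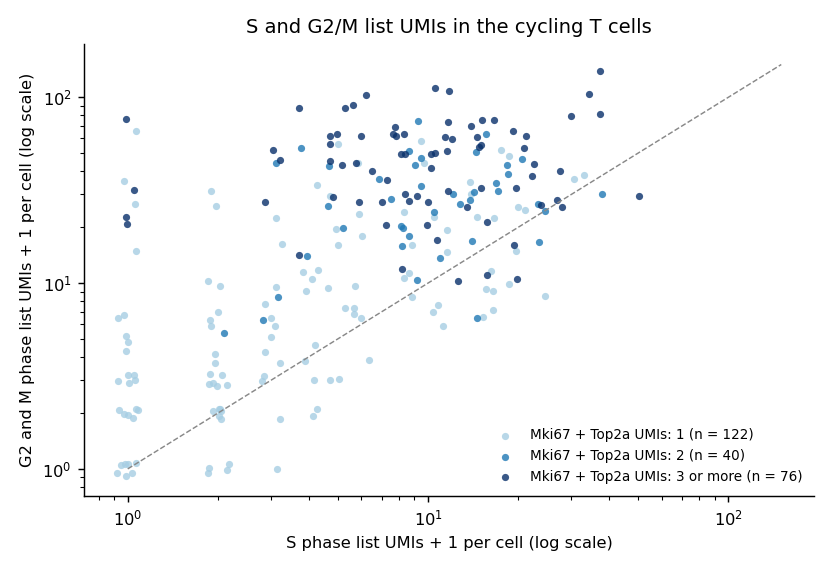
UMIs plus 1 of the S phase list (x axis) and of the G2 and mitosis list (y axis) in each of the 238 cycling T cells, on log scales, coloured by their UMIs of Mki67 and Top2a. The dashed line marks equal counts, points are spread a little to show overlaps, and 188 cells lie above the line. The 76 cells with 3 or more UMIs of Mki67 and Top2a lie mostly high, and those with 1 reach down to 0.

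Between cycling and other T cells, 4194 genes other than the 7 of the rule were tested with edgeR's quasi-likelihood test on counts summed per library and kind of cell, with library as a block. At an adjusted p of 0.05 (Benjamini-Hochberg), 273 genes were higher in cycling T cells, 6.51% of those tested, and 275 were lower, 6.56%. Of these, 204 and 171 had the same sign in all 5 libraries. Past 4-fold the split was uneven, as 106 genes were more than 4-fold higher and 20 more than 4-fold lower. The median log2 fold change of all genes was −0.10. Higher and lower are here relative to the UMIs of the cells summed. Cycling T cells held more UMIs per cell, so a gene called lower need not have fewer UMIs per cell. Without cells holding other-lineage UMIs, 302 genes were higher and 345 lower, and 231 of the 242 higher genes and 210 of the 242 lower genes that could still be tested were called again.

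Among the genes called higher that had the same sign in all 5 libraries, the 12 with the largest log2 fold change were Ankle1, Fbxo5, Fam64a, Mxd3, Pbk, Birc5, Nusap1, Ube2c, Cdc20, Cdca3, Ccnb1 and Rrm2. Esco2, Tpx2 and Cit had larger values than most of these (5.93, 5.73 and 5.43) but no UMI in either kind of cell in P80. Fbxo5 encodes Emi1, an inhibitor of the anaphase promoting complex, the ubiquitin ligase that Cdc20 activates and for which Ube2c supplies ubiquitin. Ankle1 is an endonuclease with 25 UMIs in cycling T cells and none in other T cells, at least 45.8-fold higher against a floor of 3 counts over the whole group.

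The promoters of 3 of these genes and of Cenpm, a centromere protein gene, are printed because they hold the letters searched for in the groups below. They come from RefSeq on GRCm38.p6, read along the gene's strand, from 250 bases before the start to 50 after it. Capitals mark the cell cycle homology region TTTGAA, the CCAAT box CCAAT, and the E2F letters TTTGGCGC or TTTCCCGC, each on either strand, so that TTCAAA and ATTGG are matches on the other strand. In Ube2c a CCAAT match and an ATTGG match overlap in 1 run.
Fbxo5 (chr10:5805416-5805715, minus strand): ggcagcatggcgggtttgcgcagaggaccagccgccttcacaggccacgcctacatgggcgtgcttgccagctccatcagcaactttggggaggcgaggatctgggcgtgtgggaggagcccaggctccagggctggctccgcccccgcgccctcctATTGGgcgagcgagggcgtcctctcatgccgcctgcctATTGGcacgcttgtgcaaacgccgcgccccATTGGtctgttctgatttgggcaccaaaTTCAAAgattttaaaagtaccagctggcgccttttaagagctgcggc
Ube2c (chr2:164769679-164769978, plus strand): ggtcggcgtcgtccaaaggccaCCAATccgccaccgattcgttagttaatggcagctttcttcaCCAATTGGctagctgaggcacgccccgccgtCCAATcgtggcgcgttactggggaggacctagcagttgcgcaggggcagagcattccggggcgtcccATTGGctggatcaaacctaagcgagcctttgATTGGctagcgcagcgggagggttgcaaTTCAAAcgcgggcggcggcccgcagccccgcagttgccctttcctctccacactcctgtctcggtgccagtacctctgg
Cdc20 (chr4:118437294-118437593, minus strand): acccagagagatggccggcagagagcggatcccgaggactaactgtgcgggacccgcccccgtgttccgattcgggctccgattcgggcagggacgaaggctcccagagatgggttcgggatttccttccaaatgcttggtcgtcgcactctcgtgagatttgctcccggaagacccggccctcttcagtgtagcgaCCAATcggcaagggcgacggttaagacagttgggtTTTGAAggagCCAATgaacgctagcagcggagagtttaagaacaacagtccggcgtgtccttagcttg
Cenpm (chr15:82244287-82244586, minus strand): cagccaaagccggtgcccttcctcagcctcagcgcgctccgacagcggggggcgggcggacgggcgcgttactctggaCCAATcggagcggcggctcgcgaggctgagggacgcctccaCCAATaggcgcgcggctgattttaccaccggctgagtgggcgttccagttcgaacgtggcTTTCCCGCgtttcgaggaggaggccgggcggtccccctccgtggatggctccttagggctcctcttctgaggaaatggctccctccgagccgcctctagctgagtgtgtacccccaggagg

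Fbxo5, Ube2c and Cdc20 each hold TTTGAA or its complement close to CCAAT boxes, and Cenpm holds CCAAT boxes and TTTCCCGC. RefSeq gave a promoter for 211 of the 273 higher genes, 202 of the 275 lower genes and 3221 of the 4194 genes tested. TTTGAA was in 29.9% of the promoters of higher genes, 9.90% of lower genes, 12.2% of genes tested and 18.1% of all 27025 promoters. CCAAT was in 58.3% of higher, 39.1% of lower and 39.5% of genes tested. The E2F letters were in 9.48% of higher, 0.495% of lower and 3.66% of genes tested. By role, TTTGAA was in 8 of 15 promoters of the higher spindle genes and in none of 10 of the higher DNA synthesis genes, while the E2F letters were in 4 of 8 of the higher origin licensing genes and in none of the 15 spindle promoters. A match is a description of letters and does not show that a factor binds there.

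The chromosomal passenger and cytokinesis list stood highest, with 8 of 8 genes tested higher and a median log2 fold change of 4.28. Birc5 (chr11:117849251-117855743, plus strand) encodes survivin, which docks the Aurora B kinase on chromosomes. Birc5 stood at 413 CPM in P50_Depil5D, 253 in P45, 394 in P50, 199 in P63 and 325 in P80 in cycling T cells, against 14.8, 5.29, 8.61, 0 and 0 CPM in other T cells of the same libraries. CPM is UMIs per 1000000 UMIs of the cells summed. The groups do not overlap, and the log2 fold change was 5.24 ± 0.27 (SE, n = 5 libraries, adjusted p = 1.76e-17, edgeR). Its partner Cdca8 (borealin) rose by log2 4.32, the mitotic kinase gene Pbk by 5.26, and Prc1, which bundles microtubules between the separating chromosomes, by 3.92.

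Kinetochore genes, which tie chromosomes to the spindle, were higher in 18 of 18 tested, with a median log2 fold change of 3.59. Spc24 and Spc25, subunits of the Ndc80 complex that grips microtubules, rose by log2 3.34 and 4.70, and Cenpf, a kinetochore protein gene, by 3.59. Spindle genes were higher in 18 of 18, with a median of 3.52. Stmn1 (chr4:134468320-134473843, plus strand) encodes stathmin, which destabilises microtubules. Stmn1 stood at 2252 CPM in P50_Depil5D, 969 in P45, 3041 in P50, 1171 in P63 and 1571 in P80 in cycling T cells, against 126, 53.9, 176, 50.8 and 67.4 CPM in other T cells. Every library's cycling T cells lie above every library's other T cells, with P50 highest and P45 lowest, and the log2 fold change was 4.07 ± 0.14 (adjusted p = 1.7e-22, edgeR). The tubulin genes Tuba1b and Tubb5 rose by log2 2.71 and 2.36, and Nusap1, which binds spindle microtubules, by 5.19.

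Of 9 genes tested of the anaphase promoting complex and its targets, 7 were higher, with a median log2 fold change of 1.66. Ube2c (chr2:164769898-164778822, plus strand) stood at 807 CPM in P50_Depil5D, 372 in P45, 744 in P50, 311 in P63 and 217 in P80 in cycling T cells, against 27.6, 8.99, 13.5, 6.77 and 13.5 CPM in other T cells. Ube2c did not overlap between the groups and rose by log2 5.09 ± 0.22 (adjusted p = 1.44e-19, edgeR). The activator Cdc20 rose by log2 5.05. Pttg1, which encodes securin, a target of the complex, had a log2 fold change of −0.17 ± 0.25 (adjusted p = 0.73) and was not called.

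Among cyclins and kinases, 8 of 13 genes tested were higher and 1 lower, with a median of 1.80. The mitotic genes Ccnb1, Ccna2, Cdk1 and Ccnb2 rose by log2 4.91, 4.83, 4.48 and 4.44, and Cdk4, a kinase of G1, by 1.07. Ccnd2, which encodes cyclin D2, the G1 partner of Cdk4, fell. Ccnd2 stood at 352 CPM in P50_Depil5D, 182 in P45, 280 in P50, 336 in P63 and 54.2 in P80 in cycling T cells, against 683, 421, 700, 528 and 485 CPM in other T cells. It was lower in 5 of 5 libraries, by log2 −1.26 ± 0.16 (adjusted p = 3.34e-07, edgeR). The other D cyclins were not called, with log2 fold changes of −0.89 for Ccnd1 and 0.17 for Ccnd3.

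Genes that supply, copy and package DNA were mostly higher as well. Origin licensing genes were higher in 9 of 11 tested (median log2 1.98) and DNA synthesis genes in 11 of 15 (1.42). Gmnn (geminin), which blocks a further round of licensing, rose by log2 2.73, Clspn, a replication checkpoint gene, by 3.89, and Mcm7, a subunit of the replicative helicase, by 2.11. Dut, which removes dUTP, and the DNA ligase gene Lig1 rose by 1.79 and 1.96. Nucleotide supply genes were higher in 6 of 8 (2.03), chromatin assembly genes in 15 of 18 (1.65) and condensin and cohesin genes in 9 of 10 (2.30). The chromatin protein genes Hmgb2 and Hmgn2 rose by 2.64 and 2.31, and the condensin subunits Smc2 and Smc4 by 3.38 and 1.86. Rrm2, the regulated subunit of ribonucleotide reductase, stood at 279 CPM in P50_Depil5D, 166 in P45, 473 in P50, 249 in P63 and 487 in P80 in cycling T cells, against 13.8, 3.70, 14.8, 6.77 and 0 CPM in other T cells, a rise of log2 4.86 ± 0.27. Pcna, the sliding clamp of DNA polymerase, stood at 200.3 CPM in P50_Depil5D, 158 in P45, 153 in P50, 224 in P63 and 162 in P80 in cycling T cells, against 80.5, 51.8, 64.0, 81.2 and 115 CPM in other T cells. Pcna was higher in 5 of 5 libraries, by log2 1.22 ± 0.21 (adjusted p = 3.69e-05, edgeR).

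Regulators of the cycle moved less as a group. Of 11 cell cycle inhibitor genes tested, 2 were higher, Cdkn3 by log2 4.10 and Cdkn2c by 1.70, and the median was 0.01. Cdkn1a, which encodes p21, was at 0.01 ± 0.15 and Cdkn1b, which encodes p27, at −0.38 ± 0.27, and neither was called. E2f1, a transcription factor of the G1 to S transition, rose by log2 1.53 ± 0.31 (adjusted p = 0.000487, edgeR), a call that was lost among cells with at least 2 UMIs of Mki67 and Top2a (adjusted p = 0.206). Glycolysis genes were split, with Gapdh and Tpi1 higher by log2 0.54 and 0.50 and Aldoa and Hk2 lower by 0.59 and 0.65, of 11 tested. None of the 4 calls held without shared barcodes (adjusted p of 0.103 to 0.337). At 800 UMIs per cell Tpi1 (adjusted p = 0.12) and Hk2 (0.315) were not called, and DESeq2 did not call Tpi1 (0.0975). Without P45 or without P50, Tpi1 (adjusted p of 0.11 and 0.281) and Hk2 (0.0688 and 0.114) were not called. Without P50_Depil5D, Tpi1 (0.148), Hk2 (0.0704) and Aldoa (0.149) were not, and Aldoa was also lost without P50 (0.134) and Hk2 without P63 (0.0751).

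**Figure D4:**
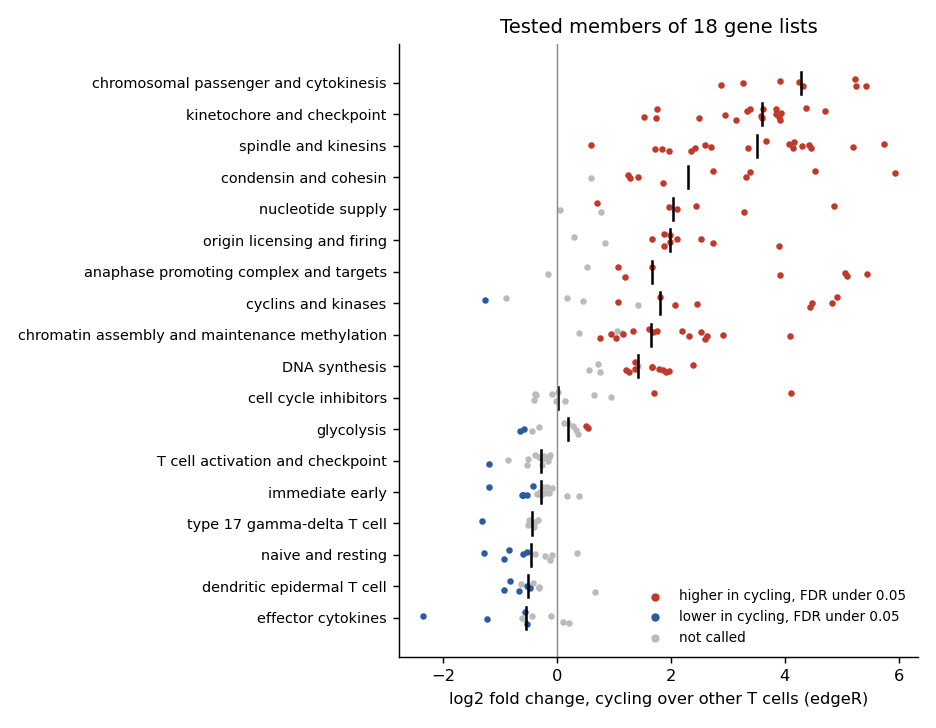
Log2 fold change of cycling over other T cells (x axis) for the genes tested in each list (rows). Points are genes, coloured by their call at an adjusted p of 0.05, and bars mark list medians. The chromosomal passenger, kinetochore and spindle lists lie farthest right (medians 4.28, 3.59 and 3.52), and the activation, type 17 γδ T cell, naive and resting, dendritic epidermal T cell and effector cytokine lists have medians left of 0.

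No tested gene of the dendritic epidermal T cell, type 17 γδ T cell, regulatory T cell, naive and resting, activation, cytokine receptor, effector cytokine or cytotoxic lists was called higher. Of the smaller lists, 3 CD8, 4 NK and ILC1 and 2 ILC2 genes were tested with none called, and 1 of 3 CD4 genes, Cd40lg, was lower. The Cd40lg call was lost without cells holding other-lineage UMIs (adjusted p = 0.0743), with DESeq2 (0.093), without shared barcodes (0.0606), without P45 (0.0524) and without P50_Depil5D (0.268). Without cells holding other-lineage UMIs, none of 4 CD4 genes and 2 of 5 NK and ILC1 genes were lower. Of 10 genes tested of the naive and resting list, 5 were lower, with a median log2 fold change of −0.46. Btg1, an antiproliferative gene of quiescent lymphocytes, stood at 2859 CPM in P50_Depil5D, 1392 in P45, 2293 in P50, 1383 in P63 and 1029 in P80 in cycling T cells, against 4587, 1875, 3237, 2827 and 2339 CPM in other T cells. It was lower in 5 of 5 libraries, by log2 −0.85 ± 0.12 (adjusted p = 1.57e-06, edgeR). Btg1 was seen in 90.3% of cycling and 90.5% of other T cells, with 1477 UMIs in 238 cells against 11689 UMIs in 2160 cells. The fall is thus one in its share of UMIs, not in UMIs per cell. Il7r, the receptor for the survival cytokine interleukin 7, stood at 66.8 CPM in P50_Depil5D, 79.1 in P45, 52.5 in P50, 37.4 in P63 and 0 in P80 in cycling T cells, against 103, 143, 143, 173 and 121 CPM in other T cells. Il7r was lower in 5 of 5 libraries, by log2 −1.29 ± 0.25 (adjusted p = 0.000293, edgeR), and with cells thinned to 800 UMIs the fall was −0.53 and the call was lost (adjusted p = 0.369). In cycling T cells of P80 a floor of 3 counts was 162 CPM, above the 121 CPM of other T cells, so the 0 there gives no direction.

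Of 10 effector cytokine genes tested, 4 were lower, and 1 with DESeq2. Ltb, which encodes lymphotoxin beta, fell by log2 1.23 ± 0.23 and was lower in 5 of 5 libraries (adjusted p = 0.000171, edgeR), and at 800 UMIs per cell the fall was 0.66 and was not called (adjusted p = 0.13). The chemokine gene Ccl1 fell by log2 2.36, Areg, which encodes the epithelial growth factor amphiregulin, by 0.56, and the chemokine gene Xcl1 by 0.53, calls that DESeq2 did not make (adjusted p of 0.382, 0.17 and 0.139). Without P45 the values were −0.32 for Areg (adjusted p = 0.291) and −0.23 for Xcl1 (adjusted p = 0.421), and neither was called. Of 16 immediate early genes, which respond to stimulation and to tissue dissociation, 6 were lower, among them Egr1 by log2 1.19 and Junb by 0.59. At 800 UMIs per cell 2 of the 16 were lower and 1 higher, and Egr1 was not called (adjusted p = 0.159). Junb was not called without shared barcodes (adjusted p = 0.195). Fibroblast genes were lower in 3 of 4 tested and keratinocyte genes in 3 of 9, or in 1 of 1 and 0 of 3 without cells holding other-lineage UMIs. The summed keratinocyte level was 97.1 to 10831 CPM in cycling and 388 to 3465 CPM in other T cells. The summed dendritic level was 11326 to 41218 CPM in cycling and 8472 to 44339 CPM in other T cells, and the macrophage level was 686 to 4185 CPM in cycling and 832 to 6027 CPM in other T cells. Jchain, a plasma cell gene, rose by log2 2.58 (adjusted p = 1.79e-07, edgeR), with all 235 of its UMIs in 1 Mki67 or Top2a-positive, Cd3-positive cell of P45, a call that DESeq2 did not make (adjusted p = 0.774). The part of other cells' RNA in these changes was not tested.

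Among the genes called lower that had the same sign in all 5 libraries, the 12 lowest were of several kinds. The sign was weak evidence in some libraries. In P80 a floor of 3 counts was 162 CPM in cycling T cells, above the other T cells' level of all 12 but Igfbp7 (202 CPM). In P50_Depil5D the floor was 18.2 CPM, while Igfbp3, Krtdap and Igfbp7 stood at 0 in cycling and 1.06 CPM in other T cells. Such values give no direction. Igfbp3, Krtdap, F11r, Igfbp7, Mmp12, Nupr1, Col1a1 and Col1a2 are known mostly from epithelial, stromal or macrophage cells, and between 52.1% and 97.4% of their UMIs in other T cells lay in cells with other-lineage UMIs. For comparison, 2304282 of all 4091853 UMIs of other T cells lay in cells without other-lineage UMIs. Col1a2 (52.1%) and Col1a1 (57.7%) had the lowest shares of these genes, and the lists that mark such cells cover macrophage, dendritic and keratinocyte genes. Igfbp3 had no UMI in cycling T cells and 227 in 13 of 2160 other T cells, with 61.7% of them in 1 cell. With so few cells holding it, its absence from 238 cycling T cells sets no bound on the fold change. DESeq2 did not call Igfbp3 (adjusted p = 0.476), F11r (0.0622) or Mmp12 (0.0983), and F11r was also lost without P45 (0.223), P50 (0.0864) or P63 (0.0861). Ly6g5b, 2900060B14Rik, Ccdc166 and Cbr1 were spread over many T cells. Ly6g5b, a member of the Ly6 family in the MHC class III region, had 13 UMIs in 11 cycling T cells and 317 UMIs in 264 other T cells. It was lower in 5 of 5 libraries, by log2 −2.36 ± 0.37 (adjusted p = 1.07e-05, edgeR), and by −2.15 without cells holding other-lineage UMIs (adjusted p = 5.2e-07). Cbr1, a carbonyl reductase gene, and the uncharacterised Ccdc166 and 2900060B14Rik fell by log2 1.95, 2.02 and 2.15.

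Markers of 4 T cell subsets were looked for in the cycling T cells. Ctla2a, a gene abundant in dendritic epidermal T cells, was seen in 162 of 238 cycling T cells (68.1%, 61.7 to 73.9), against 1456 of 2160 other T cells (67.4%, 65.4 to 69.4). The cycling T cells with it were 46 of 60 in P50_Depil5D, 32 of 66 in P45, 65 of 82 in P50, 12 of 20 in P63 and 7 of 10 in P80. Ctla2a was seen in 9.69% of C1q-positive and 13.4% of keratin-positive cells without Cd3 (medians of 2140 and 3248.5 UMIs). Cd8b1, a CD8 chain, was in 14 cycling T cells, Foxp3, the regulatory T cell factor, in 12, and Cd163l1, a gene of interleukin 17-producing γδ T cells, in 10. None of the 4 was seen in 58 cycling T cells (24.4%). Cd8b1 and Foxp3 were each seen in 0 of 423 C1q-positive cells without Cd3.

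Ctla2a stood at 6780 CPM in P50_Depil5D, 799 in P45, 7291 in P50, 1071 in P63 and 1733 in P80 in cycling T cells, against 8840, 1361, 9578, 1107 and 1362 CPM in other T cells. P50_Depil5D and P50 were high in both kinds of cell, and P80 was the library in which cycling T cells lay higher. The log2 fold change was −0.48 ± 0.12 (adjusted p = 0.00303, edgeR), lower in 4 of 5 libraries, and the call was lost without P45 (−0.33, adjusted p = 0.0776). Ctla2a and its near-identical neighbour Ctla2b share reads that counting could split between them. Ctla2b had a log2 fold change of −0.66.

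Of 10 genes tested of the dendritic epidermal T cell list, 5 were lower, both of these among them, and the list's median log2 fold change was −0.51. Cd7, a surface receptor of T and NK cells, stood at 2385 CPM in P50_Depil5D, 486 in P45, 1982 in P50, 461 in P63 and 487 in P80 in cycling T cells, against 3332, 741, 3732, 691 and 964 CPM in other T cells. Cd7 was lower in 5 of 5 libraries, by log2 −0.82 ± 0.12 (adjusted p = 2.91e-06, edgeR). Klrd1, an NK receptor gene, was lower in 5 of 5 libraries, by −0.93 ± 0.18 (adjusted p = 0.00029), and without P50 the call was lost (−0.62, adjusted p = 0.0642).

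Of the rarer subsets, Cd163l1 was at 60.7 CPM in P50_Depil5D, 19.8 in P45, 8.75 in P50 and 0 in P63 and P80 in cycling T cells, against 64.6, 33.3, 61.5, 60.9 and 40.4 CPM in other T cells. Its log2 fold change was −1.32 ± 0.41 (adjusted p = 0.0255, edgeR), with the same sign in 5 of 5 libraries. In P80 the floor was 162 CPM in cycling T cells, above the 40.4 CPM of other T cells. The 0 there gives no direction. The ratio of cycling over other T cells was 0.94 (0.43 to 1.85) in P50_Depil5D and 0.59 (0.19 to 1.46) in P45. Both intervals, which cover counting error only, include 1. The ratio was 0.14 (0.02 to 0.54) in P50 and 0 (0 to 0.84) in P63. Of 7 genes tested of the type 17 γδ T cell list, Cd163l1 was the 1 called lower. Without cells holding other-lineage UMIs 5 of 8 were lower, and DESeq2 called none. The call on Cd163l1 was lost when P45, P50, P63 or P80 was left out, with adjusted p of 0.0758 to 0.276. Cd8b1 was at 36.4 CPM in P50_Depil5D, 39.5 in P45, 26.3 in P50, 137 in P63 and 379 in P80 in cycling T cells, against 57.2, 25.9, 8.61, 60.9 and 33.7 CPM in other T cells. Of the Cd8b1 UMIs in cycling T cells, all 7 of P80 lay in 1 cell, and so did 5 of the 6 of P50. Cd8b1 was higher in 4 of 5 libraries and was not called (log2 0.71 ± 0.36, adjusted p = 0.216, edgeR). Without P50_Depil5D, in which it was lower, the value was 1.20 (adjusted p = 0.0476). Foxp3 had too few UMIs to be tested.

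The share of cycling cells was compared between T cells with and without a marker, at 800 UMIs per cell. The mean difference over libraries, cells with Ctla2a minus cells without it, was −0.358 ± 3.12 percentage points (SD, n = 5, exact sign-flip permutation test, 2-sided p = 0.75). For Cd8b1 the difference was 0.283 ± 8.10 points (n = 5, exact p = 0.9375), for Foxp3 −0.164 ± 9.60 points (n = 4, exact p = 1) and for Cd163l1 −2.61 ± 4.68 points (n = 5, exact p = 0.25). The smallest p this design allows is 0.063 with 5 libraries and 0.125 with 4, so no difference could pass 0.05. At 800 UMIs all 4 differences were smaller than their SD over libraries, but other depths gave other values. With no thinning, Cd8b1 stood at 9.53 ± 5.65 points, higher in 5 of 5 libraries (exact p = 0.063, the smallest possible). At 500 UMIs, Foxp3 stood at −3.76 ± 0.88 points, lower in 5 of 5 libraries (exact p = 0.063, the smallest possible), and Cd8b1 at −1.29 ± 6.15. The cycling share at 500 UMIs was only 2.56% (P63) to 4.65% (P80). Before thinning, Foxp3 was seen in 12 cycling and 73 other T cells. With so few cells, a library is likely to hold no cycling cell with Foxp3, which alone makes it lower. This direction and its p therefore cannot decide whether Foxp3-positive cells cycle less.

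**Figure D5:**
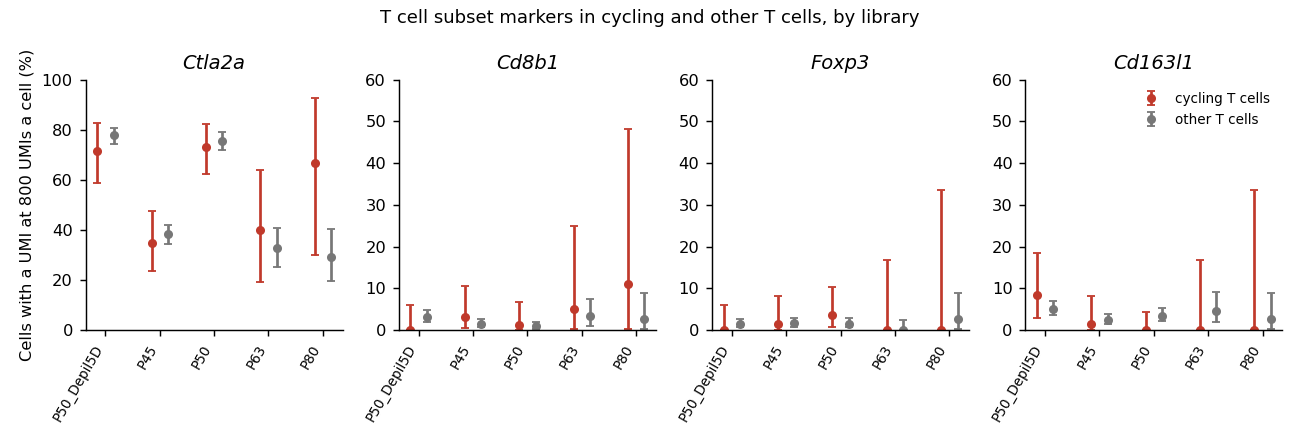
Percentage of cells with at least 1 UMI of Ctla2a, Cd8b1, Foxp3 and Cd163l1 (y axis) in cycling and other T cells of each library (x axis), at 800 UMIs per cell, with 95% Clopper-Pearson intervals. Ctla2a is highest in P50_Depil5D and P50 in both kinds of cell, with 71.7% and 73.2% of cycling T cells and 77.7% and 75.6% of other T cells.

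Within cycling T cells, depilated skin was set against P50. The 60 cells of P50_Depil5D held 164760 UMIs and the 82 cells of P50 held 228516. Of 2487 genes with at least 20 UMIs in both together, 52 (2.09%) were more than 2-fold higher in P50_Depil5D and 61 (2.45%) more than 2-fold lower, on the log2(CPM + 10) scale. The median log2 ratio was −0.01. There is 1 library a group, so these counts have no replicate check and no test.

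Several of the largest differences lay in 1 cell. The 5 highest genes in depilated skin were Ccl3, Mfge8, Sdc4, Il1r2 and Csk. In P50_Depil5D 1 cell held 94.4% of the Ccl3 UMIs, 92.2% of Mfge8, 93.3% of Il1r2 and 61.5% of Sdc4, and each of those cells held other-lineage UMIs. Csk, the kinase that restrains Lck in T cell receptor signalling, was spread over cells, with 19 UMIs in 16 of 60 cells of P50_Depil5D against 6 UMIs in 6 of 82 cells of P50. Csk stood at 115 CPM in P50_Depil5D against 26.3 CPM in P50, a ratio of 4.39 (1.69 to 13.4, counting error only), while in other T cells it stood at 97.5 against 105 CPM.

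The 5 lowest genes were Retnla, Tff1, C1qb, Il2ra and Hn1l. Retnla and C1qb are macrophage genes whose P50 UMIs lay in 3 cells each, and 53 UMIs of Tff1 lay in 6 P50 cells. Il2ra (CD25), the interleukin 2 receptor alpha chain of activated and regulatory T cells, had 1 UMI in P50_Depil5D and 20 UMIs in 14 cells of P50, a ratio of 0.07 (0.00 to 0.43). In other T cells Il2ra stood at 32.8 CPM in P50_Depil5D and 30.8 CPM in P50 (ratio 1.07, 0.61 to 1.89). Hn1l had 2 UMIs in P50_Depil5D and 18 UMIs in 16 cells of P50, a ratio of 0.15 (0.02 to 0.64).

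Of the genes of the cycle itself, Birc5 stood at 413 CPM in P50_Depil5D against 394 CPM in P50, with a ratio of 1.05 (0.75 to 1.45), and Ube2c at 807 against 744 CPM. Stmn1 stood at 2252 CPM against 3041 CPM in P50 (ratio 0.74, 0.65 to 0.84), and in other T cells at 126 against 176 CPM. No gene of the 11 kinetochore, 17 spindle and 8 chromosomal passenger genes counted passed 2-fold in either direction. The nucleotide supply, chromatin assembly, condensin and cohesin, and cyclin and kinase lists each had 1 gene more than 2-fold lower in P50_Depil5D. All 7 nucleotide supply genes counted had ratios under 1 (median log2 −0.28), 2 of them with intervals under 1, and 14 of 21 S phase genes had ratios under 1. Other lists went the other way, with ratios over 1 in 9 of 11 kinetochore, 9 of 11 activation and 8 of 10 naive and resting genes. The activation and the naive and resting lists each had 3 intervals above 1. Their median log2 ratios were 0.40 and 0.34, against 0.24 and 0.19 in other T cells. Over all 2487 genes the median log2 ratio was −0.01, with 103 intervals under 1 and 119 above 1. Of 7 regulatory T cell genes counted, 2 were more than 2-fold lower, Il2ra and Tnfrsf4, the OX40 receptor, which stood at 60.7 CPM in P50_Depil5D against 171 CPM in P50 (ratio 0.36, 0.16 to 0.73). Foxp3 had 1 UMI in P50_Depil5D and 6 in P50 (ratio 0.23, 0.01 to 1.91), and Cd163l1 had 10 UMIs and 2 UMIs (ratio 6.93, 1.48 to 65.1).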

How the data were processed

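Dermis of C57BL/6 mice was digested, live CD45+ cells were sorted, and 3'-end libraries were made in droplets on the 10X Genomics platform and sequenced, per the labels' protocols. The deposited matrices hold raw UMI counts per gene and barcode for 27998 genes, 1 matrix per library, per the file headers. The build mm10 and the tool Seurat are named in the submitters' processing notes. For the aligner, the counting tool, its use of strand and the calling of cells, the sources used here give nothing.

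Barcodes with fewer than 200 genes or more than 10% mitochondrial UMIs were removed, 61 in all. Scrublet, run through scanpy 1.11.5, marked 21 of the kept barcodes (0.341%). How many doublets it missed was not tested, no doublet was removed, and cells with other-lineage UMIs were left out as an alternative. No clustering was done. Counts were summed per library and kind of cell and tested with edgeR 4.0.16 (TMM, filterByExpr, quasi-likelihood test, library as block) in R 4.3.3, with p-values adjusted by Benjamini-Hochberg over 4194 genes, the 7 genes of the rule left out. DESeq2 1.42.0 was an alternative. The sums of 1 library share its animals and its preparation, which is why library is the block. The p-values rest on the spread between these 5 libraries, pooled over genes (median prior degrees of freedom 31.0). A gene's p-value is therefore not a measure of its own spread alone. The SE of a fold change is its absolute log2 value divided by the square root of the test's F statistic. The fit was tested on simulated counts. Depth was matched by drawing 800 UMIs per cell. Shallower cells were left out, 1 cycling and 30 other T cells, all of them in P80, which kept 9 of 10 and 79 of 109. Shares have 95% Clopper-Pearson intervals, computed with scipy 1.17.1. Ratios have exact intervals that cover counting error only. UMI levels from 3' ends were not compared between genes.

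The members and the gene lists were chosen with earlier results of these data known. Genes were named by a rule: the 12 highest and 12 lowest called genes of the same sign in all libraries, list members in order of adjusted p, the subset markers and, for depilated skin, the 5 highest and 5 lowest ratios whose interval leaves out 1. Aurora B, Pttg1, Cdk4, Ccnd1, Ccnd3, Pcna, Cdkn1a, Cdkn1b, Tnfrsf4, Esco2, Tpx2, Cit and the phase and promoter examples were named after their values were seen. Gene coordinates are from GENCODE on GRCm38, the build called mm10, matched by gene ID for 27645 of the 27998 genes. Promoter sequences are from RefSeq on GRCm38.p6, matched by symbol, with the first listed per gene used.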

Additional observations from a re-analysis of the deposited data

Results flagged for a closer look

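A total of 67 Cd3-positive cells with a UMI of Mki67 or Top2a lay outside the T cell rule, because they held at least 10 UMIs of Krt5 and Krt14. They were among 264 such Cd3-positive cells, with 18 of 56 in P50_Depil5D, 24 of 86 in P45, 7 of 42 in P50, 10 of 43 in P63 and 8 of 37 in P80. They stand out because a signal of cycling appears in cells that the comparisons leave out.

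Among the T cells without a UMI of Mki67 or Top2a, 97 of 2130 held at least 5 UMIs of the S phase and G2 and mitosis lists at 800 UMIs per cell. They stand out because cell cycle transcripts appear in cells counted as other T cells.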

How the results depend on the processing

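The comparison of cycling with other T cells, 273 genes higher and 275 lower, kept counts within 1.5 times of these without Scrublet doublets, without other-lineage cells, with at least 2 or 5 Cd3 UMIs, with at least 2 UMIs of Mki67 and Top2a, with at least 500 genes and with no filter on low counts (up to 302 higher and 399 lower). Thinning to 800 UMIs left 1292 genes to test, with 106 higher and 89 lower. Fewer genes were called lower without shared barcodes (154), without cells of low pseudogene share (175) and with DESeq2 (151), and the cause was not tested. Leaving out each library in turn gave 181 to 291 higher and 115 to 231 lower. The counts moved by more than 1.5 times without P50 (181 higher, 115 lower), and for lower genes without P45 (142) and without P50_Depil5D (124). Without the library block, which pairs the 2 sums of each library, 95 were higher and 7 lower. No paired analysis was possible because each label has 1 library in the comparisons between libraries. Of 1497 recomputed values of 94 named genes under 18 settings, 2 turned direction, both of Hbb-bs (0.91 without other-lineage cells and 2.01 with DESeq2, against −2.37), and 137 were no longer called.

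The difference in cycling share by marker turned direction for Ctla2a with no thinning (2.46 points), at 1500 UMIs (4.09) and with at least 2 (3.03) or 5 (0.566) Cd3 UMIs. For Cd8b1 it turned at 500 UMIs (−1.29), without other-lineage cells (−1.90) and without shared barcodes (−2.36), and for Foxp3 with no thinning (7.24), without shared barcodes (0.632), without cells of low pseudogene share (1.79) and with at least 500 genes (3.10). Leaving out each library gave −1.15 to 0.558 points for Ctla2a, −2.29 to 1.92 for Cd8b1, −4.90 to 1.83 for Foxp3 and −4.42 to −1.67 for Cd163l1. The ratio of P50_Depil5D over P50 was 1.13 at 500 UMIs and 1.32 there without other-lineage cells, and 0.707 and 0.767 at 1500 UMIs. The ratio of P80 over P45 was 2.26 and 2.51 at 800 UMIs and 3.10 and 3.25 at 1500 UMIs, with and without other-lineage cells. Thinning to 1500 UMIs left 28 of 119 T cells in P80 and 607 of 726 in P45, whose shallowest T cell held 1689 UMIs. The libraries were thus cut unequally, and cycling T cells are the deeper ones. G2 and mitosis led in 92.2% and S phase in 7.76% of cells with at least 2 UMIs of Mki67 and Top2a. G2 and mitosis led in 84.7% with at least 5 Cd3 UMIs, 84.6% there without other-lineage cells, and 70.9% at 800 UMIs. Genes past 2-fold in depilated skin, 52 higher and 61 lower, were 79 and 98 with 1 CPM added, 14 and 17 with 50 CPM, 158 and 228 among genes with at least 10 UMIs, and 12 and 12 with at least 50. The settings with 5 Cd3 UMIs, 500 or 1500 UMIs, and depth combined with other-lineage cells were chosen after seeing the data. P63 and P80, with 20 and 10 cycling T cells, limit what differences between ages can be seen.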
